A study of Mus musculus with 23 samples.

Results

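The 10 genes described here make or control the matrix of growth plate cartilage. They are the transcription factor Sox9, the proteoglycan aggrecan (Acan), hyaluronan and proteoglycan link protein 1 (Hapln1), the matrilins Matn1 and Matn3, cartilage oligomeric matrix protein (Comp), chondroadherin (Chad), epiphycan (Epyc), unique cartilage matrix-associated protein (Ucma) and chondromodulin (Cnmd). Members were chosen by gene symbol. All 10 were found among the 17644 genes of the deposited TPM table (transcript levels scaled for gene length and library size) and were matched to the count table by gene ID. RNA came from marrow-depleted femur and tibia of female C57BL6/N mice at 11 weeks of age, with 1 mouse per library. There were 5 WT Control mice and 6 mice in each of the WT T1D, KO Control, and KO T1D groups. T1D mice received repeated doses of streptozotocin (STZ), a toxin of insulin-producing beta cells, at 100 mg/kg, and bones were taken after 3 weeks of diabetes, whereas Control mice received saline. The KO label denotes a global knockout of Sarm1, an NAD-consuming enzyme that drives axon degeneration, aimed at every cell type and not at nerves alone. The study asked whether loss of Sarm1 changed how bone responded to diabetes. Epiphyses were cut off before marrow was spun out, and how much growth plate stayed on each shaft is not given in the sources used here.

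The growth plate is the layer of cartilage near each end of a long bone where lengthening takes place. Its chondrocytes divide in columns, enlarge as hypertrophic cells that lay down type X collagen, and are then replaced by bone. The matrix around them is built on type II collagen fibrils and on aggrecan bound to hyaluronan, and Sox9 switches on many of the genes that encode it. Some of these proteins are also made outside cartilage, such as Comp in tendon and Chad in bone and tendon.

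Total counts ran from 16938101 to 20135592 per library. Values within a gene are given as CPM, counts scaled to library size after TMM normalization, which corrects for the make-up of each library. Sarm1 itself did not separate the genotypes, at 0.845 to 1.76 CPM in WT Control mice and 0.268 to 1.57 CPM in KO Control mice. It was at 0.340 to 1.21 CPM in WT T1D and 0.811 to 1.46 CPM in KO T1D mice. These values rest on 5 to 32 counts per library. By qPCR, the study reported less Sarm1 in KO than in WT bone. KO here denotes the libraries labelled Sarm1-KO. WT T1D mice A3905 and A3906 stood apart from the other libraries, with 3018 and 2215 CPM of Col1a1, the main bone collagen, against 27359.5 CPM or more in each of the other libraries. The IDs of WT Control mouse A1757 and of WT T1D mice A1764, A1787, and A1758 began with A17, and all others with A36 to A39. Results are therefore also given for the A36 to A39 mice and without A3905 and A3906. IDs with A36 were all of KO mice, and IDs with A17 or A39 all of WT mice. Only KO Control mouse A3766 and WT Control mouse A3767 shared a series, so genotype and ID series cannot be told apart.

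Cartilage transcripts were present in these shafts, and their amounts differed widely between mice of the same group. All 5 chondrocyte markers (Col2a1, Acan, Sox9, Col9a1, and Hapln1) had counts in every mouse. Their summed level ran from 819 to 1772 CPM in WT Control, 174 to 1076 CPM in WT T1D, 481 to 975 CPM in KO Control, and 447 to 1015 CPM in KO T1D mice, most of it Col2a1. A more uneven pattern was seen for Matn3. It had 10 or more counts in 8 of 23 mice, which were 4 of 5 WT Control mice (A1757, A3903, A3904, and A3907), 1 of 6 WT T1D mice (A3909), 2 of 6 KO Control mice (A3670 and A3672), and 1 of 6 KO T1D mice (A3675). The same 8 mice were also the 8 highest for Hapln1 and for Cnmd. They were the 8 highest for Col10a1, the type X collagen of hypertrophic chondrocytes, at 23.4 to 121.6 CPM against no more than 4.50 CPM in any other mouse. They were the 8 highest for Col9a1, a type IX collagen chain on cartilage fibrils, at 3.69 CPM or more against no more than 1.47 CPM elsewhere. For Prg4, the lubricin of the joint surface, 3 of the 8 highest mice were among them, and for Col1a1 4 of the 8. Acan shared 5 of its 8 highest mice with Matn3, and Sox9, Comp, and Chad shared 6 each.

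**Figure D1:**
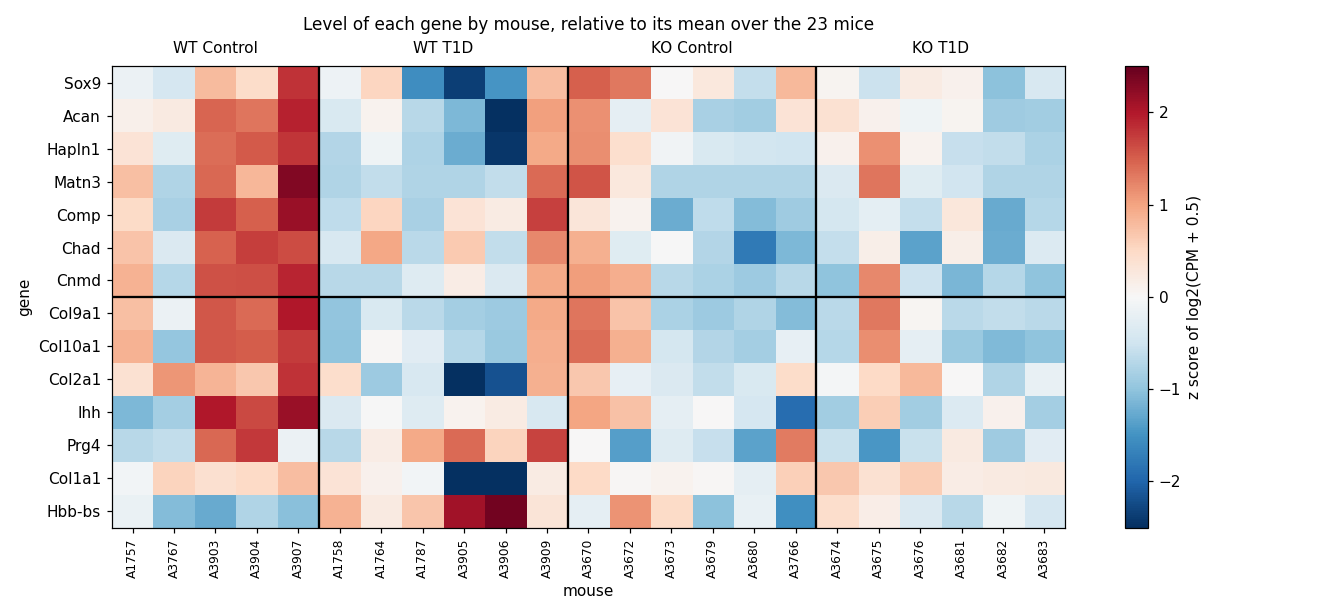
Level of the 7 tested genes (above the horizontal line) and 7 reference genes (below it) in each of 23 mice, as the z score of log2(CPM + 0.5) over all mice. Columns are mice in their 4 groups. A3903, A3904, A3907, A3909, A3670, and A3675 were high for Matn3, Cnmd, Col9a1, and Col10a1 together, and A3905 and A3906 were lowest for Col1a1 and Col2a1.

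Per transcript length, Chad was the most abundant member in every group and Comp came next. In WT Control mice the median TPM was 91.4 for Chad (range 19.3 to 102.6), 25.9 for Comp (9.41 to 36.1), 6.68 for Acan (2.27 to 11.0), 4.76 for Cnmd (0.260 to 6.45), and 4.23 for Hapln1 (0.870 to 5.56). Sox9 was at 0.900 TPM (0.580 to 1.87), and Matn3, Ucma, Epyc, and Matn1 were at medians of 0.530, 0.410, 0.390, and 0.250 TPM. In that group the ranges of every pair of neighbors in the order overlapped. In each of the other 3 groups the range of Comp lay above that of Acan with no overlap, and all other neighboring ranges overlapped. Median TPM of Chad and Comp was 22.5 and 10.7 in WT T1D, 15.2 and 9.50 in KO Control, and 16.1 and 9.8 in KO T1D mice. The medians of Chad and Comp thus lay closer together in each of these groups than in WT Control mice.

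Promoter sequence was examined because several members rose and fell in the same mice. RefSeq windows on GRCm38.p6 were available for 8 of the members (Acan, Hapln1, Matn1, Matn3, Chad, Epyc, Ucma, and Cnmd), and the 250 bases before the start were searched on both strands. The SOX core ACAAAG was found in 1 of these 8 genes (Epyc) and in 16.5% of all 32851 windows, and the SOX core ACAATG in 1 of 8 (Epyc) and in 10.7%. The RUNX core ACCACA was found in 3 of 8 genes (Matn1, Hapln1, and Ucma) and in 14.05% of windows. TATAAA was found in 1 of 8 (Chad) and in 12.4%. No matches overlapped each other in these genes. A match is only a match of letters and not a shown binding site. Shown are the 250 bases before the start of Acan, the proteoglycan with no match and the highest GC content of the windows (74.4%), of Chad, the most abundant member (60.4% GC), and of Matn1 (62.0% GC). Capitals mark TATAAA in Chad and the reverse complement of ACCACA in Matn1. All 3 are on the plus strand, at chr7:79052976-79053225 for Acan, chr11:94564797-94565046 for Chad, and chr4:130944135-130944384 for Matn1.
Acan: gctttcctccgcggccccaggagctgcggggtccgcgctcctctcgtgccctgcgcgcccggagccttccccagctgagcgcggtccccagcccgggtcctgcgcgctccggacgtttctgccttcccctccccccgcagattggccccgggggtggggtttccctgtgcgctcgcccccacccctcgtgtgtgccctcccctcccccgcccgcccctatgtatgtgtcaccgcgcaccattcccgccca
Chad: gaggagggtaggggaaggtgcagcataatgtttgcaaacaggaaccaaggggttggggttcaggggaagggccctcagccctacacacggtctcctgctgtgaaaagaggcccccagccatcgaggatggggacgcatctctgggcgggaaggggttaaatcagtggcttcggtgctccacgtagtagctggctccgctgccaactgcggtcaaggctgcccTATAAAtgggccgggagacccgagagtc
Matn1: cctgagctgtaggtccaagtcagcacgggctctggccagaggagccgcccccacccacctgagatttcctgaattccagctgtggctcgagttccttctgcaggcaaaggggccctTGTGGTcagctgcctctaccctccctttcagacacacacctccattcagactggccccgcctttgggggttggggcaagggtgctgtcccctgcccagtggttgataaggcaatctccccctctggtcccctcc

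The first comparison, T1D against Control in WT mice, asks what diabetes does in bone with intact Sarm1. All 7 members that could be tested had lower fitted levels in WT T1D than in WT Control mice, and none of these differences passed the threshold. The 7 reached 10 counts in 5 or more mice (Sox9, Acan, Hapln1, Matn3, Comp, Chad, and Cnmd); Matn1, Epyc, and Ucma had too few reads. In edgeR's quasi-likelihood test, 0 of 7 had an adjusted p under 0.05, whereas 2.33% of the 14364 genes tested did. Unadjusted, 3 of 7 were under 0.05 (Acan, Hapln1, and Cnmd), beside 22.2% of all genes, and DESeq2 also called 0, beside 6.98% of all genes. The median log2 fold change of the 7 was -1.66, beside -0.01 over all genes tested. It was -0.73 with an erythroid score as a covariate, a score built from markers that were higher in WT T1D mice. In bulk RNA, fewer cells of a type and less RNA per cell cannot be told apart.

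Sox9, the master transcription factor of chondrocytes (chromosome 11, 112782210 to 112787757), was at 1.81, 1.54, 3.05, 2.54, and 5.12 CPM in WT Control mice A1757, A3767, A3903, A3904, and A3907. In WT T1D mice it ran from 0.340 to 3.00 CPM with a median of 1.29. The groups overlapped, with 3 of the WT T1D mice below the lowest WT Control value, among them A3905 and A3906. For Sox9 the log2 fold change was -0.86 (SE 0.43, 95% CI -1.75 to 0.03, adjusted p = 0.243).

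Acan, the large proteoglycan that holds water in cartilage (chromosome 7, 79053226 to 79115099), was at 12.4, 13.4, 37.1, 33.9, and 54.5 CPM in the same WT Control mice. In WT T1D mice it ran from 0.925 to 26.3 CPM with a median of 7.06. WT T1D mice A1764, A1787, A1758, A3905, and A3906 lay below every WT Control mouse, and A3909 lay within their range. For Acan the log2 fold change was -1.66 (SE 0.55, 95% CI -2.80 to -0.52, adjusted p = 0.0872). Hapln1, which ties aggrecan to hyaluronan (chromosome 13, 89540529 to 89611832), was at 5.26, 2.85, 13.5, 15.2, and 18.7 CPM in WT Control mice and at 0.058 to 9.004 CPM, median 1.79, in WT T1D mice. Here 4 of the WT T1D mice lay below the whole WT Control range, and the lowest was A3906 with 1 count. The log2 fold change of Hapln1 was -1.96 (SE 0.66, 95% CI -3.32 to -0.59, adjusted p = 0.0909). Acan and Hapln1 tracked each other over the 23 mice, with Pearson's r of 0.91 on log2(CPM + 0.5) as a description, since all values share the same libraries.

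The matrilins are adaptor proteins that link collagen fibrils to other matrix molecules. Matn3 (chromosome 12, 8947929 to 8972028) was at 0.986, 0, 1.92, 1.07, and 4.02 CPM in WT Control mice, from 73 counts in A3907 down to 0 counts in A3767. In WT T1D mice A3909 had 1.89 CPM, from 34 counts, and each of the other 5 had 0 or 1 count. The log2 fold change of Matn3 was -2.23, with a wide error (SE 1.27, 95% CI -4.85 to 0.39, adjusted p = 0.305). Matn1 (chromosome 4, 130944385 to 130955476) had no more than 14 counts in any library and 57 in all. It was at 8, 0, 6, 4, and 6 counts in WT Control mice and at 0 to 4 counts in WT T1D mice, where 3 of 6 were at 0. With counts this low a difference between groups was not detectable at this depth. In a fit without the count filter Matn1 was at -1.45 (SE 1.12, adjusted p = 0.489).

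Comp, a pentameric glycoprotein that helps collagen fibrils assemble (chromosome 8, 70373548 to 70382066), was at 26.4, 14.5, 47.7, 42.3, and 57.3 CPM in WT Control mice and at 14.6 to 46.7 CPM, median 24.2, in WT T1D mice. No WT T1D mouse lay below every WT Control mouse, and A3905 and A3906, at 25.0 and 23.4 CPM, were near the middle of their group. Comp had a log2 fold change of -0.56 (SE 0.30, 95% CI -1.18 to 0.06, adjusted p = 0.275). This was the smallest of the 7 differences.

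Chad and Epyc belong to the small leucine-rich repeat proteins of cartilage, and Chad binds cells and type II collagen. Chad (chromosome 11, 94565047 to 94569127) was at 49.2, 20.02, 92.5, 112.3, and 104.8 CPM in WT Control mice and at 15.5 to 73.4 CPM, median 33.1, in WT T1D mice. WT T1D mice A1787, A1758, and A3906 lay below every WT Control mouse, and the rest lay within the WT Control range. Chad had a log2 fold change of -0.97 (SE 0.52, 95% CI -2.05 to 0.10, adjusted p = 0.277). Epyc (chromosome 10, 97644068 to 97681908) had 3, 0, 17, 8, and 24 counts in WT Control mice, and in WT T1D mice it ran from 0 to 8 counts with 3 of 6 at 0. Both groups thus held mice without a read. Without the count filter Epyc was at -2.19 (SE 1.17, adjusted p = 0.309).

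Ucma is a small secreted protein of resting chondrocytes and Cnmd is a membrane glycoprotein that keeps cartilage free of vessels. Ucma (chromosome 2, 4976122 to 4985748) had 0, 0, 3, 19, and 13 counts in WT Control mice. In WT T1D mice it had 13 counts in A3909 and at most 2 in the others, and without the count filter it was at -1.27 (SE 1.24, adjusted p = 0.588). Cnmd (chromosome 14, 79637682 to 79662194) was at 2.19, 0.219, 4.52, 4.57, and 6.01 CPM in WT Control mice and at 0.225 to 2.39 CPM, median 0.476, in WT T1D mice. WT Control mouse A3767 had the lowest Cnmd of both groups, and 4 WT Control mice were higher than 5 of the 6 WT T1D mice. Its log2 fold change was -2.11 (SE 0.95, 95% CI -4.08 to -0.14, adjusted p = 0.192).

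**Figure D2:**
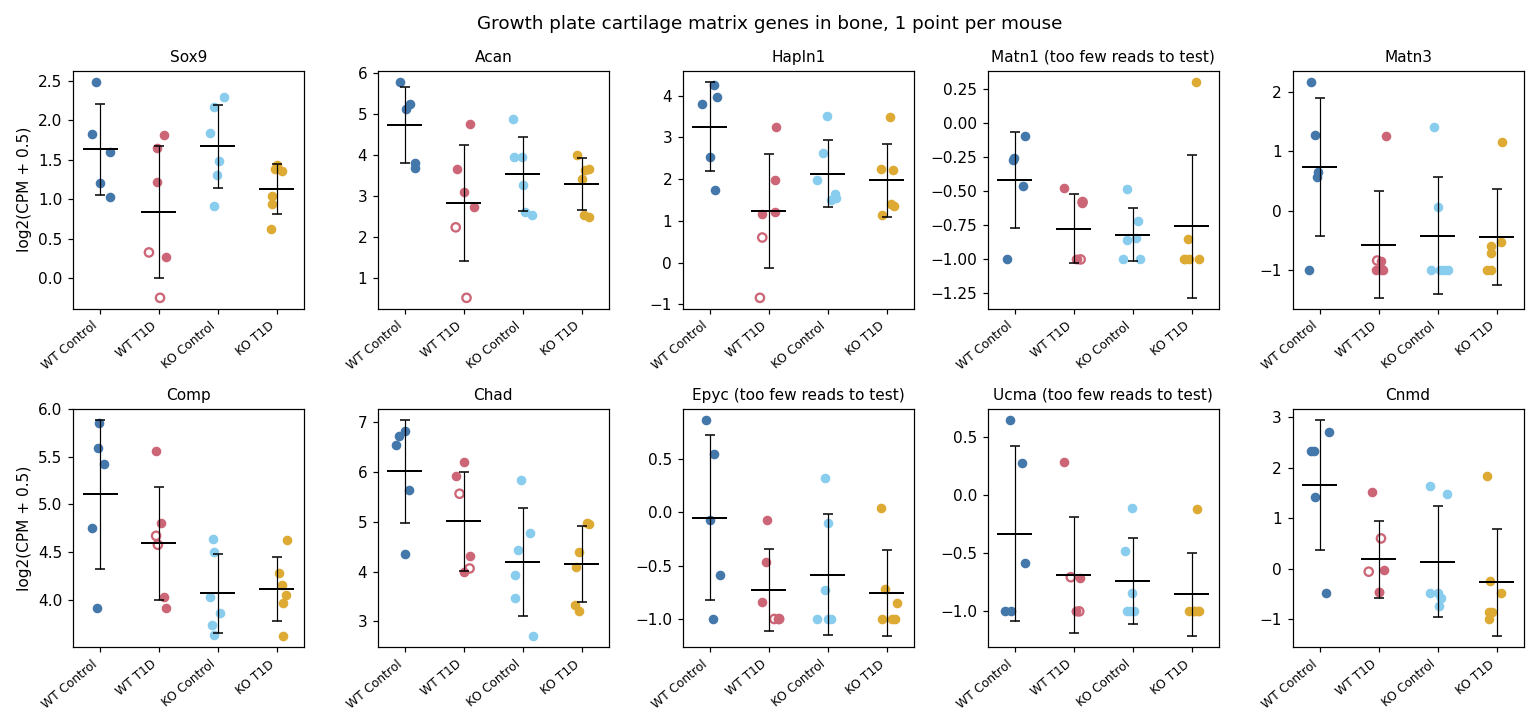
Level of each of the 10 genes as log2(CPM + 0.5), with 1 point per mouse in 4 groups, black lines at the mean, and error bars of 1 SD. Open circles are WT T1D mice A3905 and A3906. WT Control mice had the highest mean for 9 of the 10 genes and the exception was Sox9, but the points of WT Control and WT T1D mice overlapped for every gene.

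The outcome for several genes turned on 1 diabetic mouse. WT T1D mouse A3909 had the highest Acan, Hapln1, Matn3, Comp, Chad, Cnmd, Sox9, and Ucma of its group. Without A3909, Acan (log2 fold change -2.27, adjusted p = 0.0178), Hapln1 (-2.77, adjusted p = 0.0180), and Matn3 (-5.77, adjusted p = 0.0374) passed the threshold in edgeR, against 8.8% of all genes. The Matn3 value then rests on a WT T1D group with 0 or 1 count per mouse, so its size depends on the fit and is no estimate of the fold. Without A3905 and A3906 together, the 7 log2 fold changes were -2.06 to -0.46 and the lowest adjusted p was 0.387. In that fit 0 of 7 passed, as 0 of all 14364 genes tested did. Among the A36 to A39 mice they were -1.89 to -0.34, with 0 of 7 past the threshold although 15.4% of all genes passed in that fit. On TPM values with limma, 4 of 7 passed with a pseudocount of 1 (Acan, Hapln1, Cnmd, and Sox9) and 3 of 7 with 0.1 (Acan, Hapln1, and Sox9), but 35.9% and 36% of all genes passed there too, and the median gene itself moved by -0.24 and -0.29 on the log2 scale. Relative to that shift on the log2(TPM + 1) scale, Acan differed by -1.20, Hapln1 by -1.02, Cnmd by -1.06, and Sox9 by -0.20.

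**Figure D3:**
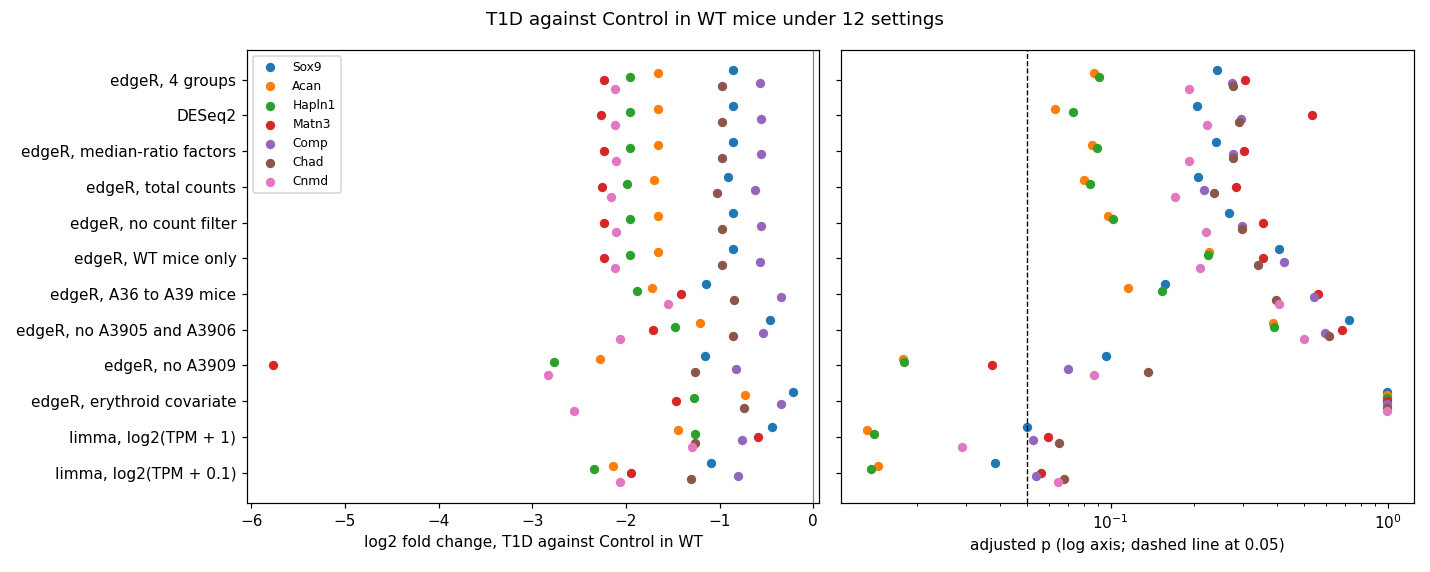
Log2 fold change (left) and adjusted p on a log axis (right) of the 7 tested genes, T1D against Control in WT mice, under each way of processing the data. All points on the left lay below 0. Acan and Hapln1 passed the threshold of 0.05 without mouse A3909 and on TPM values, and in no other setting shown.

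Other cell types moved in the same comparison. Of 8 erythroid markers, 7 were measured and all 7 were higher in WT T1D mice. The threshold was passed by 4 of the 7, beside 2.33% of all genes. Among these 4, Hbb-bs rose by 0.89 on the log2 scale (SE 0.20, adjusted p = 0.0367). The summed level of the 7 was 97494 to 143021 CPM in WT Control and 126086 to 237403 CPM in WT T1D mice. Of 10 osteoblast and osteocyte markers, Ibsp fell by 0.78 (SE 0.15, adjusted p = 0.0236), the median was -0.77, and the summed level was 60715 to 118178 CPM against 4817 to 85398 CPM. None of 6 tendon and ligament, 5 articular surface, 6 skeletal muscle, 6 neutrophil and myeloid, or 5 osteoclast markers passed the threshold, with medians of -0.13, 0.02, 0.17, 0.23, and 0.05. In summed level tendon and ligament markers were at 95.5 to 219 CPM in WT Control and 79.7 to 272 CPM in WT T1D mice, and Kera was at 0 in a WT T1D mouse. Articular surface markers summed to 44.5 to 113 CPM and 47.5 to 114 CPM in these groups. With an erythroid score as a covariate, the log2 fold changes of the 7 members were -2.55 to -0.21 and none passed, as 0 of the 14364 genes did. The score was the mean of these same erythroid markers, which were higher in WT T1D mice. It therefore overlaps with the T1D difference, and this fit cannot separate them. Without A3905 and A3906 together no gene of any list passed the threshold, as 0 of the 14364 genes did (1575 at an unadjusted p under 0.05). The part of these cell types in the members' values was not tested further.

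In mice labelled KO, the T1D and Control ranges of every member overlapped. Of 7 tested members 0 passed the threshold, as did 0% of all genes tested. Unadjusted, 0 of 7 members and 3.15% of all genes were under 0.05, and DESeq2 called 0, beside 0% of all genes. The median log2 fold change was -0.28, beside 0.00 over all genes, and with 1 mouse left out it ran from -0.68 without A3675 to 0.17 without A3670. Sox9 had the largest difference, at 1.39 to 4.40 CPM (median 2.69) in KO Control and 1.04 to 2.21 CPM (median 1.80) in KO T1D mice, a log2 fold change of -0.72 (SE 0.41, 95% CI -1.57 to 0.12, adjusted p = 0.99997).

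Acan was at 5.29 to 28.6 CPM (median 11.97) in KO Control and 5.13 to 15.4 CPM (median 11.0) in KO T1D mice, with a log2 fold change of -0.39 (SE 0.53, 95% CI -1.48 to 0.71). Hapln1 was at 2.31 to 11.0 CPM (median 3.05) and 1.71 to 10.8 CPM (median 3.14), with a log2 fold change of -0.13 (SE 0.63, 95% CI -1.43 to 1.17). KO Control mouse A3670 was highest for both genes, and KO T1D mouse A3675 was highest for Hapln1 but not for Acan. Comp was at 11.9 to 24.4 CPM (median 14.9) against 11.8 to 24.1 CPM (median 16.7), a log2 fold change of 0.03 (SE 0.29, 95% CI -0.57 to 0.64). Chad was at 6.004 to 56.6 CPM (median 17.9) against 8.74 to 30.8 CPM (median 18.6), a log2 fold change of -0.22 (SE 0.51, 95% CI -1.27 to 0.83).

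No marker of the 8 cell type lists passed the threshold in KO mice, as 0% of all genes did. Erythroid markers summed to 80848 to 165046 CPM in KO Control and 108861 to 152730 CPM in KO T1D mice. Osteoblast and osteocyte markers summed to 53061 to 107014 CPM and 70415 to 106128 CPM in these groups.

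The scarcer members depended on single mice in the KO groups. Matn3 had 40 counts in KO Control mouse A3670, 10 in A3672, and 0 in the other 4, whereas in KO T1D mice it had 33 counts in A3675 and at most 4 elsewhere. Its log2 fold change was -0.28 (SE 1.28), -2.17 without A3675, and 1.70 without A3670. Cnmd was at 2.63 and 2.28 CPM in A3670 and A3672, at 3.05 CPM in A3675, and at no more than 0.344 CPM in any other KO mouse. Its log2 fold change was -0.58 (SE 0.96), -2.72 without A3675, and 0.06 without A3670. Matn1, Epyc, and Ucma had at most 4, 14, and 8 counts in KO Control mice and at most 14, 10, and 8 in KO T1D mice, and in the KO T1D group A3675 had the most of each. A3670, A3672, and A3675 thus had the highest Matn3 and Cnmd among the KO mice.

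The interaction asks whether the T1D difference itself differed by genotype. All 7 fitted interactions were above 0, that is, the T1D difference was less negative in KO mice, and none passed the threshold. Between the genotypes, KO against WT had a median log2 fold change of -1.27 in Control mice and 0.06 in T1D mice. In T1D mice 3 of the 7 were lower in KO and 4 higher, so an interaction above 0 does not mean a higher level in KO T1D mice. In edgeR 0 of 7 members and 0% of all genes passed. Unadjusted, 0 of 7 members and 10.2% of all genes were under 0.05, and DESeq2 called 0, beside 0% of all genes. The median interaction was 1.27 on the log2 scale, beside 0.01 over all genes. It was 0.56 without KO T1D mouse A3675, 0.82 without A3905 and A3906, and 0.52 with the erythroid covariate. Hapln1 came nearest, at 1.83 (SE 0.91, 95% CI -0.05 to 3.70, adjusted p = 0.496), and Acan was at 1.27 (SE 0.76, 95% CI -0.31 to 2.84, adjusted p = 0.552). Matn3 was at 1.95 (SE 1.81), Cnmd at 1.53 (SE 1.36), Chad at 0.75 (SE 0.73), Comp at 0.59 (SE 0.42), and Sox9 at 0.14 (SE 0.59). Without A3675, Matn3 was at 0.0651 and Cnmd at -0.61. Sox9 was at -0.26 without A3905 and A3906. Among the A36 to A39 mice, where genotype went with ID series, the 7 interactions were 0.37 to 1.75. Of these 0 passed the threshold, beside 0% of all genes. A difference between the genotypes in the T1D response was therefore not shown for any member, and the intervals allow both none and a large one.

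**Figure D4:**
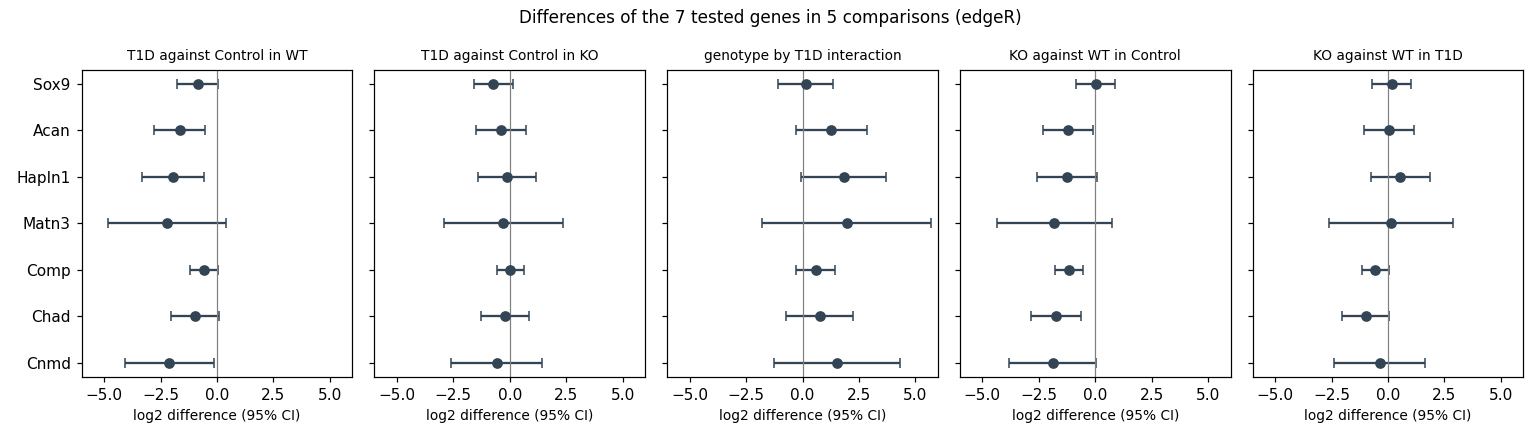
Log2 difference of the 7 tested genes with 95% confidence intervals (edgeR) in 5 comparisons, 1 panel each. Points left of 0 are lower in T1D or in KO mice, except in the interaction panel. There, right of 0 means a T1D difference that was less negative or more positive in KO than in WT mice. All 7 points lay left of 0 for T1D in WT mice and right of 0 for the interaction, and most intervals crossed 0.

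KO against WT in Control mice compared the genotypes without diabetes. Here 6 of 7 members were lower in KO Control mice, and none passed the threshold. In edgeR 0 of 7 passed, beside 0.0278% of all genes. Unadjusted, 3 of 7 were under 0.05 (Acan, Comp, and Chad), beside 4.8% of all genes. DESeq2 called 0, beside 0.0278% of all genes. The median log2 fold change was -1.27, beside 0.00 over all genes. This comparison shares the WT Control mice with the T1D comparison in WT. Comp had a mean of 37.6 ± 17.1 CPM (SD, n = 5) in WT Control and 16.9 ± 5.21 CPM (SD, n = 6) in KO Control mice. All 6 KO Control mice were below the WT Control mean of Comp and 3 were below every WT Control mouse. The log2 fold change of Comp was -1.16 (SE 0.30, 95% CI -1.78 to -0.53, unadjusted p = 0.000863, adjusted p = 0.999). Chad had a mean of 75.8 ± 39.6 CPM (SD, n = 5) against 22.6 ± 18.2 CPM (SD, n = 6), a log2 fold change of -1.74 (SE 0.53, 95% CI -2.84 to -0.65, adjusted p = 0.999). For Chad, too, 3 of 6 KO Control mice lay below every WT Control mouse. Acan was at -1.21 (SE 0.54), Hapln1 at -1.27 (SE 0.64), Cnmd at -1.89 (SE 0.94), Matn3 at -1.81 (SE 1.23), and Sox9 at 0.02 (SE 0.42). Among the A36 to A39 mice, where genotype went with ID series, the 7 values were -2.01 to -0.0906 and 0 passed, beside 0.0209% of all genes. Sox9 means lay close together, at 2.81 ± 1.42 CPM (SD, n = 5) and 2.86 ± 1.19 CPM (SD, n = 6).

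KO against WT in T1D mice compared the genotypes under diabetes. Of 7 members 0 passed, beside 0.0905% of all genes, 0 of 7 had an unadjusted p under 0.05, beside 17.1%, and DESeq2 called 0, beside 1.66%. Fitted values were lower in KO T1D mice for 3 members and higher for 4, with a median of 0.06 beside 0.01 over all genes. Chad and Comp had the lowest values, with log2 fold changes of -0.99 (SE 0.51, 95% CI -2.04 to 0.06, adjusted p = 0.320) and -0.56 (SE 0.29, 95% CI -1.17 to 0.04, adjusted p = 0.321). All 6 KO T1D mice were below the WT T1D mean of both genes. Acan, at 9.59 ± 8.98 CPM (SD, n = 6) in WT T1D and 9.97 ± 4.07 CPM (SD, n = 6) in KO T1D mice, had a log2 fold change of 0.06 (SE 0.53, 95% CI -1.05 to 1.16), and without A3905 and A3906 it was -0.39. Among the A36 to A39 mice, where genotype went with ID series, the 7 values were -1.23 to 0.33, and 0 passed, beside 10.7% of all genes. Of the other cell types, 7 of 7 erythroid markers were lower in KO T1D than in WT T1D mice (median -0.48) and 10 of 10 osteoblast and osteocyte markers were higher (median 0.70), none past the threshold. Skeletal muscle markers were lower in 6 of 6 cases (median -1.13), osteoclast in 5 of 5 (-0.46), tendon and ligament in 5 of 6 (-0.37), neutrophil and myeloid in 5 of 6 (-0.17), and articular surface in 3 of 5 (-0.74), again with none past the threshold. Tendon and ligament markers summed to 79.7 to 272 CPM in WT T1D and 36.9 to 166 CPM in KO T1D mice, and articular surface markers to 47.5 to 114 CPM and 37.02 to 61.3 CPM. Their part in the members' values was not tested.

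Other cartilage genes were also lower in WT T1D mice in most cases. Of 24 tested genes for cartilage collagens, matrix, and regulators outside the 10, 18 were lower in WT T1D mice, beside 51.9% of all genes. Their median was -0.46, and 2 passed the threshold, beside 2.33% of all genes. These were Trps1, a repressor that acts in chondrocyte maturation, which fell by 0.71 (SE 0.16, adjusted p = 0.0367), and Sox6, a partner of Sox9 that red cell precursors also use, which rose by 0.62 (SE 0.14, adjusted p = 0.0367). Trps1 was named after its values were seen, and both calls were lost without A3905 and A3906, where 0 of the 14364 genes passed. The lowest values were those of Col9a1 at -2.91 (SE 1.08, adjusted p = 0.118), Snorc, a small proteoglycan of chondrocytes, at -2.26 (SE 1.11, adjusted p = 0.233), and Col9a2 at -2.19 (SE 0.87, adjusted p = 0.143). Scrg1 was at 0.98 (SE 0.37, adjusted p = 0.124). Col2a1, the main cartilage collagen, was at -1.09 (SE 0.35, adjusted p = 0.0767). In KO mice none of the 24 passed, beside 0% of all genes, 12 were lower, beside 50.6%, and the median was 0.01. In KO against WT Control mice 21 of the 24 were lower, beside 50.1% of all genes, with a median of -0.32. None passed there, beside 0.0278% of all genes.

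Genes of the hypertrophic zone were lower in WT T1D mice in 13 of 15 tested cases, beside 51.9% of all genes, with a median of -0.66. Of the 15, 2 passed the threshold, beside 2.33% of all genes, and both are also osteoblast genes. Some genes of this list, Ibsp among them, were also counted among the 10 osteoblast and osteocyte markers, all lower in WT T1D mice. The part of bone cells in these values was not tested. Runx2, the transcription factor that drives hypertrophy and bone formation, fell by 0.66 (SE 0.16, adjusted p = 0.0451), and Ibsp, bone sialoprotein, by 0.78. Both were named after their values were seen, and both calls were lost without A3905 and A3906, where 0 of the 14364 genes passed. Col10a1 was at 23.4, 0.274, 83.9, 76.8, and 121.6 CPM in WT Control mice A1757, A3767, A3903, A3904, and A3907. In WT T1D mice it ran from 0.229 to 24.8 CPM with a median of 1.51, and A3909 was the highest. The log2 fold change of Col10a1 was -3.47 (SE 1.37, adjusted p = 0.138), with WT Control mouse A3767 low and WT T1D mouse A3909 high for their groups. Panx3, a channel protein of hypertrophic chondrocytes and osteoblasts, was at -1.24 (SE 0.34, adjusted p = 0.0524) and Ihh, the hedgehog signal of the growth plate, at -1.09 (SE 0.48, adjusted p = 0.187), whereas Mmp13 was at 0.03 and Gli1 at 0.35. In KO mice 7 of the 15 were lower with T1D, beside 50.6% of all genes, and the median was 0.03. None of them passed, beside 0% of all genes. Of 11 tested genes of cartilage matrix breakdown, none passed in any of the 5 comparisons, where at most 2.33% of all genes did. In WT T1D mice 7 were lower, beside 51.9% of all genes, with a median of -0.24. The lowest was Adamts4, an aggrecanase, at -0.74 (SE 0.25, adjusted p = 0.0854).

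The genes whose pattern over the 23 mice was most like the mean of the 7 tested members were led by the type IX and type X collagen genes of cartilage. Likeness was Pearson's r between log2(CPM + 0.5) of each tested gene averaging 1 CPM or more and the mean z score of the members, as a description of values that share libraries and depth. The 10 highest were Col9a3 (r = 0.94), Col10a1 (0.93), Col9a1 (0.93), Col9a2 (0.91), Snorc (0.89), Clec3a (0.87), Pcolce2 (0.81), Fxyd2 (0.79), Crispld1 (0.79), and Chadl (0.79). After each group's mean was removed, these values were 0.71 to 0.92, so the likeness was also seen among mice of the same group. The 10 genes were picked as the highest of 13301 over these same mice, so this is a description and no separate check. Col2a1 was less like the members (r = 0.65, rank 71), and Col1a1 (0.41), Prg4 (0.28), Scx (0.33), and Tnmd (0.21) less again. Among the members, r over the 21 pairs ran from 0.40 for Sox9 with Chad to 0.91 for Matn3 with Cnmd, with a median of 0.73.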

How the data were processed

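PolyA RNA from bone shafts of 23 female mice was sequenced, 1 library each. Reads were aligned by the authors with HISAT and Bowtie2 (tools and the GRCm38.p6 and mm10 builds per the labels), and genes were quantified with RSEM, which gave the deposited expected counts and the deposited TPM values. TPM is scaled for gene length and library total. Expected counts were rounded. The 10 members and the other gene lists were chosen with earlier results of these data known.

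Genes reaching 10 counts in 5 or more mice were kept (14364), TMM factors were computed, and 4 group means were fitted in edgeR 4.0.16 (quasi-likelihood, R 4.3.3), with Benjamini-Hochberg adjustment over all tested genes and a threshold of 0.05. 95% intervals are from the same fit. Alternatives were DESeq2 1.42.0, RLE factors, total counts, no filter, limma 3.58.1 on log2(TPM + 1) and log2(TPM + 0.1), the A36 to A39 mice, no A3905 and A3906, an erythroid covariate, only the 2 groups compared, and leaving out each mouse. Because libraries were single mice, p-values measure the spread between mice. Depth was 16938101 to 20135592 counts per library. Besides the 10 members, named genes were the 3 lowest and 2 highest of each list in the WT comparison, Col2a1 and Col10a1, and the 10 most alike; exceptions are marked. The fit was tested on simulated data. No 2 libraries of a group agreed within sampling noise. Gene positions are from RefSeq on GRCm38.p6. Reading of counts by strand is not given in the sources used here.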

Additional observations from a re-analysis of the deposited data

Results flagged for a closer look

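In 3 of 28 gene and group combinations examined, the highest mouse lay far from the others on the log2(CPM + 0.5) scale by Dixon's criterion. Chance flags about 1 in 20 groups of independent, normally spread values. Most mice of the flagged groups had few or no counts, and A3675 was flagged in both Matn3 and Cnmd. The 3 flags therefore cannot be set against that rate. WT T1D mouse A3909 had 1.89 CPM of Matn3, from 34 counts, and the other 5 mice of its group had 0 or 1 count. KO T1D mouse A3675 had 1.74 CPM of Matn3, from 33 counts, against at most 4 counts in its group. The same mouse had 3.05 CPM of Cnmd, from 58 counts, against at most 7 counts. Both mice were among the 8 highest for Hapln1, Col9a1, and Col10a1.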

How the results depend on the processing

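Of 343 values of single members under the alternatives, 322 kept their direction and their side of the threshold, and the 7 negative differences in WT T1D mice stayed negative under every alternative and with any 1 mouse left out. The number of members past the threshold in that comparison was 4 with limma on log2(TPM + 1), 3 with limma on log2(TPM + 0.1), and 0 to 3 with 1 mouse left out, 3 being without A3909. In the other 4 comparisons it was 0 throughout. The median of the members in WT T1D was -0.73 with the erythroid covariate and -2.27 to -1.33 with 1 mouse left out. For T1D in KO mice, Comp was at -0.0081 with total counts and Matn3 at 0.0416 with limma on log2(TPM + 0.1). The Sox9 interaction was -0.26 without A3905 and A3906 and -0.46 with the erythroid covariate. Sox9 in KO against WT Control mice was -0.0056 with limma on log2(TPM + 1) and -0.0906 in the A36 to A39 mice. In KO against WT T1D mice, the values in the A36 to A39 mice, without A3905 and A3906, and with the erythroid covariate were -0.0764, -0.39, and -0.37 for Acan and -0.81, -0.39, and -0.18 for Matn3, and in the last 2 of these settings -0.24 and -0.21 for Sox9. For each of these the cause was not tested. With 1 mouse left out, the T1D difference in KO mice ran from -0.56 to 0.0055 for Acan, -0.0901 to 0.17 for Comp, -2.17 to 1.70 for Matn3, -0.42 to 0.30 for Chad, -0.68 to 0.34 for Hapln1, and -2.72 to 0.0571 for Cnmd. Signs changed without A3670 for Acan, Matn3, Chad, Hapln1, and Cnmd, without A3680, A3673, A3766, A3681, or A3675 for Comp, and without A3681, A3682, or A3683 for Hapln1. The interaction ran from -0.20 to 0.44 for Sox9 and -0.61 to 2.25 for Cnmd, and KO against WT Control from -0.14 to 0.36 for Sox9. KO against WT T1D ran from -0.19 to 0.67 for Acan, -0.0535 to 0.46 for Sox9, -1.75 to 3.68 for Matn3, -0.0021 to 1.37 for Hapln1, and -2.504 to 0.36 for Cnmd. Depth limits Matn1, Epyc, and Ucma, which had 57, 102, and 73 counts over all libraries. No paired analysis was possible because mouse IDs are not shared between groups.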

Other observations

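Col2a1, which encodes the main collagen of cartilage, shared 6 of its 8 highest mice with Matn3, whereas Cnmd and Col10a1 shared all 8. It was at 168 CPM or more in every mouse and reached 1162 CPM in WT Control mouse A3767, which had 0 counts of Matn3 and 0.274 CPM of Col10a1. It was lowest in WT T1D mice A3905 and A3906, at 168 and 205 CPM, which were also lowest for Col1a1. Panx3 ran from 10.5 to 20.8 CPM in WT Control mice and from 1.62 to 17.8 CPM in WT T1D mice, against 6.98 to 16.0 CPM in KO Control and 9.61 to 17.5 CPM in KO T1D mice. Mmp13, the collagenase of hypertrophic chondrocytes and osteoblasts, was highest in A3905 and A3906, at 875 and 920 CPM, against at most 618 CPM in any other mouse.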
